A study of Homo sapiens with 64 samples.

Results

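SW948 label-retaining cells (LRCs) were compared with the cycling cells (non-LRCs) sorted from spheroid cultures of the line. The comparison rests on 8 of the 64 RNA-seq libraries of the series, the 4 labelled SW948 LRC and the 4 labelled SW948 BULK, chosen by their labels and paired by replicate number. SW948 is an established human colorectal adenocarcinoma cell line. In the study, SW948, HT55, RKO, SW48, DLD1 and HCT15 cells were labelled with CFSE and grown as non-adherent spheroids in serum-free medium with EGF and bFGF. On day 6, cells with high CFSE signal (LRCs) and the bulk of the CFSE distribution (non-LRCs) were sorted by flow cytometry, 4 replicates of each from each line. All 8 SW948 libraries therefore came from dye-labelled spheroid cells of 1 untreated line, and the populations were separated by the dye gate. The other 16 libraries of the series were unsorted DLD1 controls and were not used here.

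CFSE binds covalently to proteins inside the cell and is shared between the daughter cells at each division, so a cell that keeps the dye has divided little or not at all since labelling. In the intestine, slowly cycling cells have been sought among crypt stem cells and among secretory precursors, and in tumours they are of interest because many cytotoxic drugs act on dividing cells. Cell cycle arrest is enforced by the CDK inhibitors, which block the cyclin-dependent kinases, while stress pathways such as the integrated stress response, with its transcription factor ATF4, and the hypoxia response, with HIF, adjust metabolism and translation in cells under strain.

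Between 13714485 and 19861557 reads were counted on genes per SW948 library. The study states that its experiments were done in biological quadruplicate, and the labels do not say whether replicate numbers mark separate cultures. The p-values rest on the spread between these samples, estimated in part from all genes together and not from each gene alone. All 12 colon epithelium markers (among them CDX2, VIL1, CDH17 and KRT20) were measured, with a summed level of 8511 to 10210 CPM (counts scaled to library size after TMM normalization) in the LRCs and 8629 to 9121 in the non-LRCs. None of 7 endothelial markers and 3 of 10 fibroblast markers passed the filter on low counts (10 counts or more in any 4 of these 8 libraries), with CDH5, TEK, CLEC14A and THY1 at 0 in every library. Of 12 leukocyte markers, PTPRC, CD3E, CD2, MS4A1 and TYROBP were at 0 in all 8 libraries, and the 1 that passed the filter was CD68, a lysosomal membrane protein, which epithelial cells also make.

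The library labelled LRC 4 stood with the non-LRCs. On the first principal component of log2 CPM, which held 45.6% of the variance, LRC 1, 2 and 3 lay at 36.8, 19.4 and 14.9, the non-LRCs between -18.7 and -10.5, and the library labelled LRC 4 at -17.2. Its correlation across genes was 0.9922 to 0.9955 with the non-LRCs and 0.978 to 0.988 with the other LRCs, and the library nearest to it was non-LRC 3. The log2 ratios of LRC over non-LRC had an SD across genes of 0.46, 0.40 and 0.39 in pairs 1 to 3 and of 0.23 in pair 4. Across genes, these ratios correlated at 0.37 to 0.46 among pairs 1 to 3, and pair 4 correlated with them at 0.03, 0.13 and -0.03. What set this library apart was not tested, and the counts of calls in SW948, over all genes and in most gene lists, are given with and without replicate 4.

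**Figure D1:**
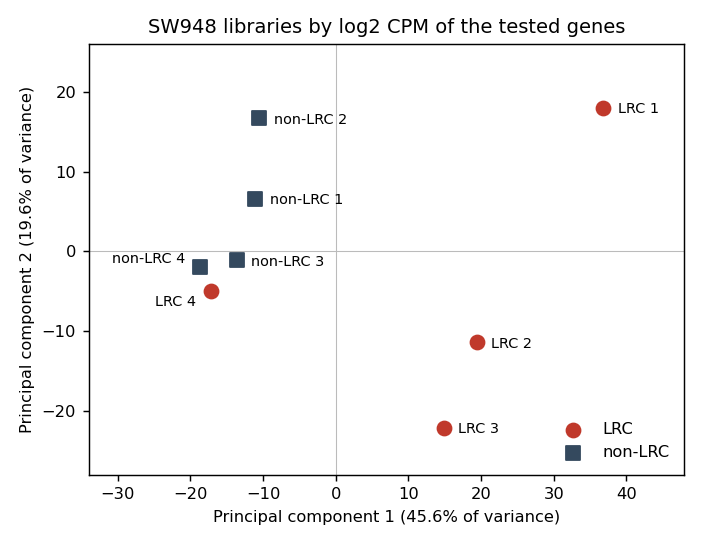
The 8 SW948 libraries on the first and second principal components of log2 CPM over the tested genes, with circles for LRCs and squares for non-LRCs, each named by its replicate number. LRC 1 to 3 lie at 14.9 to 36.8 on the first component, and the library labelled LRC 4, at -17.2, lies among the non-LRCs.

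With all 4 pairs, 419 of 13674 tested genes (3.06%) were higher in LRCs and 82 (0.600%) were lower (edgeR quasi-likelihood test with the replicate number as a block, Benjamini-Hochberg adjusted p under 0.05). Of the 419, 95 were at least 2-fold higher (a log2 fold change of 1 or more), and of the 82 only 2 were at least 2-fold lower, so most changes were increases and most were modest in size. Without replicate 4, 900 of 13386 genes (6.72%) were higher and 477 (3.56%) were lower. Of the 501 genes called with all pairs, 487 were called in the same direction without replicate 4. The genes called without replicate 4 were selected on pairs 1 to 3, where the 900 had median log2 ratios of 0.60, 0.58 and 0.57, and pair 4, which had no part in that selection, gave them a median of 0.02, with 497 (55.2%) above 0, where 49.5% of all tested genes were above 0 in that pair. For the 477 lower genes the medians were -0.64, -0.42 and -0.30 in pairs 1 to 3 and -0.05 in pair 4, where 312 (65.4%) were below 0. In 14.6% of all tested genes LRC 1 to 3 lay above every non-LRC, and in 10.5% they lay below, against 410 of the 419 higher genes and all 82 lower ones. Since those genes were called from the same libraries, such a separation is a description of them.

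The counts turned on which libraries entered and on the block. Without the replicate block, edgeR called 0 genes in either direction, with 2350 at an unadjusted p under 0.05, and DESeq2 with the block called 174 higher and 24 lower. Leaving out replicate 2 or replicate 3 (which keeps replicate 4) also gave 0 calls, with 1145 and 2241 genes at an unadjusted p under 0.05, while leaving out replicate 1 gave 377 and 57. With replicate 4 left out and no block, 705 genes were higher and 235 lower. By library size alone, in place of TMM, 289 genes were higher and 18 lower, so that 94.1% of the calls were increases, against 83.6% with TMM. In bulk libraries, a change in the share of cells making a transcript and a change in its level per cell cannot be told apart.

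**Figure D2:**
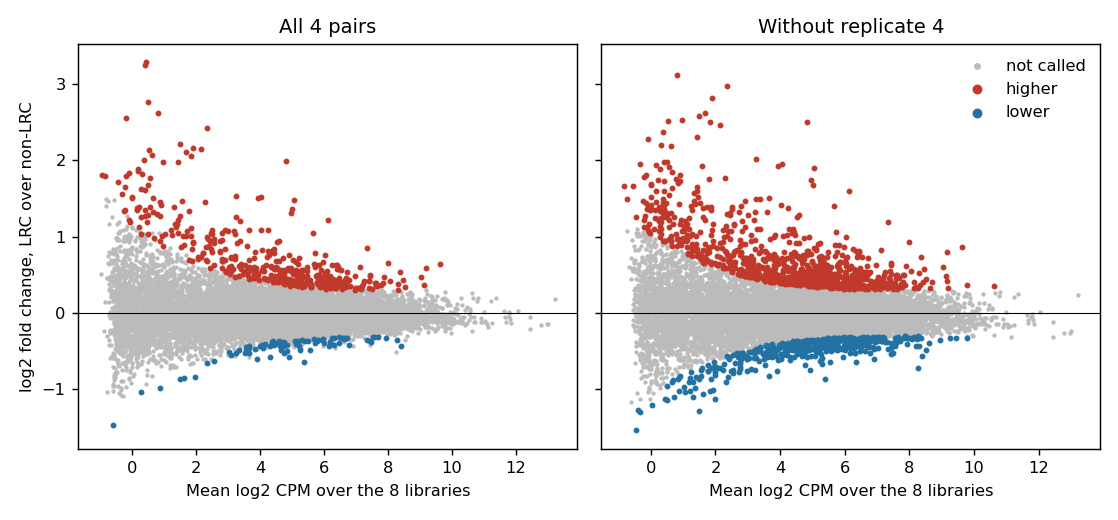
log2 fold change of LRCs over non-LRCs against the mean log2 CPM of each gene over the 8 libraries, with all 4 pairs (left) and without replicate 4 (right, for genes tested in both fits); red and blue points are genes called higher and lower at an adjusted p under 0.05, gray points are genes not called. Over all genes tested in each fit, increases outnumbered decreases, 419 to 82 with all pairs and 900 to 477 without replicate 4.

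The 12 largest increases, taken among called genes that averaged 1 log2 CPM or more and were higher in all 4 pairs, were ETS1, MIR22HG, DDIT3, TSPYL2, IGFBP3, NR1D1, SYNE1, IL6R, CAV1, ARRDC3, CEACAM7 and TP53INP2. The largest, ETS1, lies at chr11:128328656-128457453 (minus strand), and DDIT3 at chr12:57910371-57915520 (minus strand) (GRCh37). ETS1, an ETS family transcription factor, stood at 8.32, 8.53 and 7.75 CPM in LRC 1 to 3, 1.85 in the library labelled LRC 4 and 1.30, 0.811, 1.95 and 1.19 in non-LRC 1 to 4. LRC 1 to 3 lay above every non-LRC, and the library labelled LRC 4 lay within the non-LRC range (log2 fold change 2.22 ± 0.27, adjusted p = 3.68e-05; 2.58, adjusted p = 6.99e-26 without replicate 4). TSPYL2, a nucleosome assembly protein known for restraining proliferation, stood at 33.4, 32.9 and 47.7 CPM in LRC 1 to 3, 10.6 in the library labelled LRC 4 and 10.4, 8.41, 10.4 and 10.2 in non-LRC 1 to 4. IGFBP3, which binds insulin-like growth factors, stood at 35.3, 36.5 and 34.3 CPM in LRC 1 to 3, 8.93 in the library labelled LRC 4 and 11.7, 9.15, 7.43 and 8.61 in non-LRC 1 to 4. For both genes LRC 1 to 3 lay above every non-LRC (log2 fold change 1.51 ± 0.20 and 1.51 ± 0.20, adjusted p = 4.49e-05 for each). NR1D1, the circadian repressor REV-ERB alpha, stood at 67.1, 74.02 and 91.6 CPM in LRC 1 to 3, 19.4 in the library labelled LRC 4 and 23.3, 21.5, 17.2 and 18.5 in non-LRC 1 to 4. NR1D1 was higher in LRCs by 1.48 ± 0.20 on the log2 scale (adjusted p = 5.67e-05). ARRDC3, an alpha-arrestin that is induced when insulin signaling is low, stood at 96.99, 87.6 and 49.8 CPM in LRC 1 to 3, 15.4 in the library labelled LRC 4 and 28.1, 26.1, 18.02 and 13.3 in non-LRC 1 to 4. Its levels in pairs 1 to 3 differed between replicates in both populations, and the LRC was higher in each pair (log2 fold change 1.36 ± 0.16, adjusted p = 1.81e-05).

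MIR22HG, the host transcript of miR-22, had 7.34 to 12.3 CPM in LRC 1 to 3, 2.44 in the library labelled LRC 4 and 0.811 to 2.21 in the non-LRCs. MIR22HG was higher in LRCs by 2.11 ± 0.27 on the log2 scale (adjusted p = 4.49e-05). IL6R, the interleukin-6 receptor, had 9.11 to 11.7 CPM in LRC 1 to 3, 3.04 in the library labelled LRC 4 and 2.51 to 3.52 in the non-LRCs. IL6R was higher in LRCs by 1.46 ± 0.21 on the log2 scale (adjusted p = 0.000118). CAV1, the coat protein of caveolae, had 4.07 to 5.70 CPM in LRC 1 to 3, 1.80 in the library labelled LRC 4 and 1.13 to 1.91 in the non-LRCs. CAV1 was higher in LRCs by 1.39 ± 0.24 on the log2 scale (adjusted p = 0.00115). In all 3, LRC 1 to 3 and the non-LRCs did not overlap. SYNE1, which encodes the nuclear envelope protein nesprin-1, varied more among the LRCs, with 2.95, 7.62 and 9.79 CPM in LRC 1 to 3, 2.15 in the library labelled LRC 4 and 1.13 to 2.35 in the non-LRCs. SYNE1 was higher in LRCs by 1.47 ± 0.32 on the log2 scale (adjusted p = 0.00849). CEACAM7, a cell adhesion molecule of colonic epithelium, had 5.08 to 6.68 CPM in LRC 1 to 3, 1.75 in the library labelled LRC 4 and 1.19 to 2.77 in the non-LRCs. CEACAM7 was higher in LRCs by 1.27 ± 0.23 on the log2 scale (adjusted p = 0.00182). TP53INP2, which takes part in autophagosome formation, had 15.3 to 23.1 CPM in LRC 1 to 3, 6.83 in the library labelled LRC 4 and 5.09 to 7.08 in the non-LRCs. TP53INP2 was higher in LRCs by 1.26 ± 0.16 on the log2 scale (adjusted p = 4.49e-05). Over these 12 genes the largest log2 fold change with all pairs was 2.22 and the smallest 1.26, and each was larger without replicate 4 (1.44 to 2.62).

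Some genes with larger fold changes fell outside that rule because they were low or because pair 4 did not follow, and are named here after their values were seen. SLC2A3, the neuronal-type glucose transporter GLUT3, had 9.18, 6.07 and 2.66 CPM in LRC 1 to 3, 0.698 in the library labelled LRC 4 and 0.432, 0.443, 0.504 and 0.314 in non-LRC 1 to 4. SLC2A3 was higher in LRCs by 3.29 ± 0.35 on the log2 scale (adjusted p = 8.49e-06). Its raw counts were 140, 94, 43 and 14 in the LRC libraries and 7, 6, 8 and 5 in the non-LRCs, so that it passed the filter only through the LRCs, and it was not tested without replicate 4. GADD45B, a stress-inducible regulator of MAP kinase signaling, had 18.1, 19.1 and 22.4 CPM in LRC 1 to 3, 1.35 in the library labelled LRC 4 and 2.78, 2.65, 2.08 and 2.14 in non-LRC 1 to 4. GADD45B was higher in LRCs by 2.42 ± 0.31 on the log2 scale (adjusted p = 4.49e-05), and by 2.98 without replicate 4 (adjusted p = 2.34e-59). In pairs 1 to 3 it was higher in the LRC, and in pair 4 it was lower. NOS3, the endothelial form of nitric oxide synthase, had 5.10 to 7.19 CPM in LRC 1 to 3, 1.10 in the library labelled LRC 4 and 0.441 to 0.865 in the non-LRCs (log2 fold change 2.63 ± 0.33, adjusted p = 4.49e-05), while the endothelial markers CDH5, TEK and CLEC14A were at 0.

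**Figure D3:**
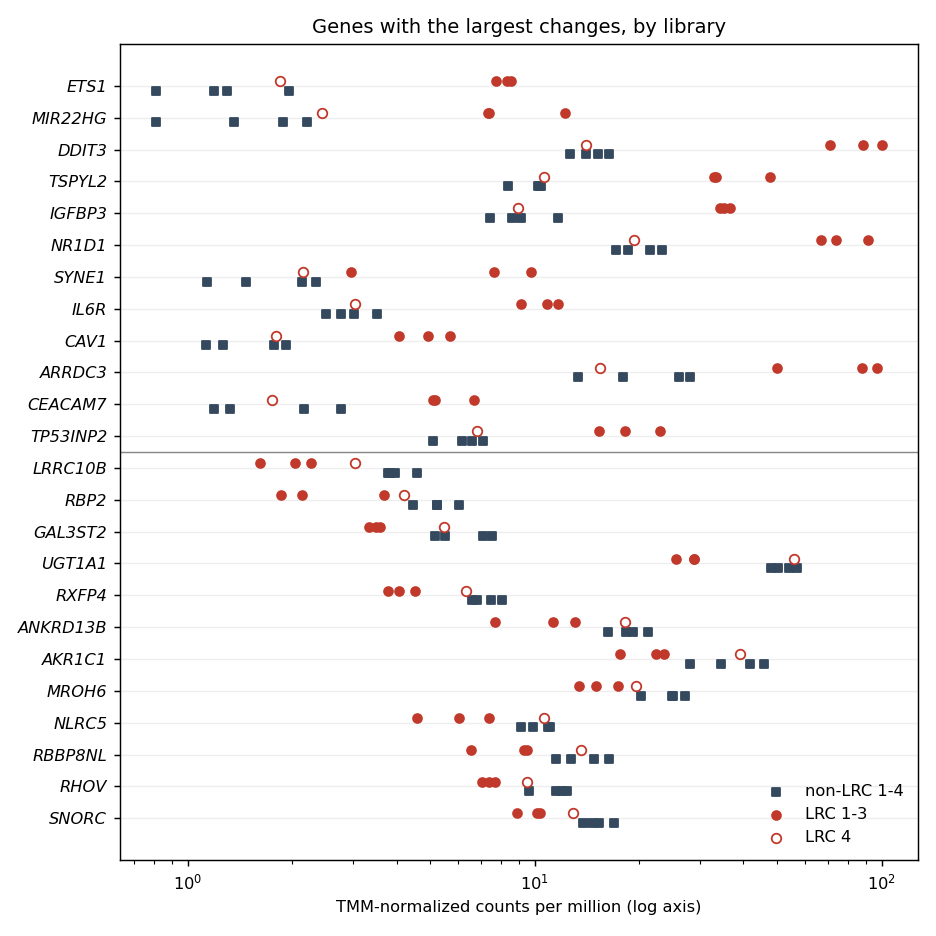
TMM-normalized CPM (log axis) of the 12 genes with the largest increases (top) and the 12 with the largest decreases (bottom), with filled circles for LRC 1 to 3, an open circle for the library labelled LRC 4 and squares for the 4 non-LRCs. Filled circles and squares separate in nearly every row, and the open circle sits with or beside the squares.

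Decreases were smaller, and the 12 that met the same rule were LRRC10B, RBP2, GAL3ST2, UGT1A1, RXFP4, ANKRD13B, AKR1C1, MROH6, NLRC5, RBBP8NL, RHOV and SNORC. UGT1A1, which conjugates bilirubin, had 28.8, 25.6 and 28.8 CPM in LRC 1 to 3, 55.9 in the library labelled LRC 4 and 50.2, 47.9, 54.2 and 57.03 in non-LRC 1 to 4. UGT1A1 was lower in LRCs, with a log2 fold change of -0.65 ± 0.12 (adjusted p = 0.00189) and of -0.87 without replicate 4 (adjusted p = 1.73e-10). The level in LRC 1 to 3 was well below that in each of the other 5 libraries, although the exons that UGT1A1 shares with the other UGT1A genes make its count uncertain. RBP2, the retinol-binding protein of enterocytes, had 3.67, 2.13 and 1.86 CPM in LRC 1 to 3, 4.19 in the library labelled LRC 4 and 6.05, 5.24, 5.23 and 4.46 in non-LRC 1 to 4. RBP2 was lower in LRCs, with a log2 fold change of -0.84 ± 0.21 (adjusted p = 0.0219). AKR1C1, an aldo-keto reductase whose near-identical family members make its count uncertain, had 17.6 to 23.5 CPM in LRC 1 to 3, 39.1 in the library labelled LRC 4 and 28.04 to 45.8 in the non-LRCs. AKR1C1 was lower in LRCs, with a log2 fold change of -0.57 ± 0.12 (adjusted p = 0.00752). NLRC5, the transcriptional activator of MHC class I genes, had 4.59 to 7.37 CPM in LRC 1 to 3, 10.6 in the library labelled LRC 4 and 9.15 to 11.1 in the non-LRCs. NLRC5 was lower in LRCs, with a log2 fold change of -0.55 ± 0.15 (adjusted p = 0.0433). Over the 12 genes the log2 fold changes lay between -0.85 and -0.52, and without replicate 4 between -1.14 and -0.57. Without the block, the adjusted p-values of these 24 leading genes were 0.133 to 0.232.

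Genes of the integrated stress response and the unfolded protein response were higher in LRCs in 8 cases and lower in none. That was 8 of 24 tested genes (12 and 0 lower without replicate 4), with a median log2 fold change of 0.24 (0.32 without replicate 4) against -0.01 over all tested genes. Over all tested genes 3.06% were higher and 0.600% lower, and 6.72% and 3.56% without replicate 4. The SW948 list counts that follow are to be read beside these shares, which several lists with few calls come near. These were DDIT3, DNAJB9, SESN2, CHAC1, HERPUD1, ASNS, DNAJC3 and SEL1L. DDIT3, the stress-induced transcription factor CHOP, had 88.7, 70.8 and 100.4 CPM in LRC 1 to 3, 14.02 in the library labelled LRC 4 and 16.4, 15.2, 14.1 and 12.6 in non-LRC 1 to 4. LRC 1 to 3 lay at or above 70.8 CPM and the other 5 libraries at or below 16.4 (log2 fold change 1.99 ± 0.23, adjusted p = 1.81e-05; 2.50, adjusted p = 1.51e-82 without replicate 4). DNAJB9, a co-chaperone of the endoplasmic reticulum, had 36.4, 33.7 and 34.9 CPM in LRC 1 to 3, 13.5 in the library labelled LRC 4 and 13.3, 10.4, 17.01 and 12.2 in non-LRC 1 to 4. DNAJB9 was higher in LRCs by 1.09 ± 0.15 on the log2 scale (adjusted p = 0.000119). SESN2, a leucine sensor upstream of mTORC1, had 24.9 to 35.8 CPM in LRC 1 to 3, 14.9 in the library labelled LRC 4 and 13.6 to 15.9 in the non-LRCs. SESN2 was higher in LRCs by 0.81 ± 0.15 on the log2 scale (adjusted p = 0.00309). CHAC1, which breaks down glutathione, had 4.13 to 5.05 CPM in LRC 1 to 3, 1.80 in the library labelled LRC 4 and 1.24 to 1.92 in the non-LRCs. CHAC1 was higher in LRCs by 1.17 ± 0.25 on the log2 scale (adjusted p = 0.00751). In each of these, LRC 1 to 3 did not overlap with the non-LRCs. The smaller increases were those of HERPUD1 (0.44 ± 0.10) and SEL1L (0.35 ± 0.09), both of which serve endoplasmic reticulum-associated degradation, of the co-chaperone DNAJC3 (0.39 ± 0.09) and of asparagine synthetase, ASNS (0.39 ± 0.09). TRIB3, another target of ATF4 and CHOP, had 188 to 256 CPM in LRC 1 to 3, 151 in the library labelled LRC 4 and 144 to 180.2 in the non-LRCs (0.25 ± 0.09, adjusted p = 0.125).

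Promoters of the stress genes are shown because ATF4 and CHOP bind a C/EBP-ATF response element, searched here as TGATGNAAN on both strands in the 250 bases before the start of each gene's canonical transcript (GRCh37, GENCODE). The element was found in 3 of the 8 promoters of the genes that rose (37.5%), in 3 of 24 of the whole list (12.5%) and in 433 of 19874 promoters of protein-coding genes (2.18%). Among promoters of tested genes the share was 1.18%. The CHAC1 window is chr15:41245419-41245668 (plus strand), that of HERPUD1 chr16:56965804-56966053 (plus strand) and that of ASNS chr7:97501721-97501970 (minus strand); capitals mark this element and, in HERPUD1, also ACGTG, the core of the hypoxia response element, some of them overlapping on opposite strands.
CHAC1: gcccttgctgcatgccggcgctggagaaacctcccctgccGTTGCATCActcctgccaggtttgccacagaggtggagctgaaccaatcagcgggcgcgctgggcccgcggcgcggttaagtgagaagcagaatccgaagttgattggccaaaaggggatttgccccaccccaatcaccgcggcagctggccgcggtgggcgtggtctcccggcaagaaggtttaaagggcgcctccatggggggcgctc
HERPUD1: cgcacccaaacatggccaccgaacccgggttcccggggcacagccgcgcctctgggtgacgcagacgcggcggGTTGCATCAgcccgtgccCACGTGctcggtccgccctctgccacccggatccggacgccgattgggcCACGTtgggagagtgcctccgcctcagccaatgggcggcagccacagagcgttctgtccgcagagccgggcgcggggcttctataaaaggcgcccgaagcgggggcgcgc
ASNS: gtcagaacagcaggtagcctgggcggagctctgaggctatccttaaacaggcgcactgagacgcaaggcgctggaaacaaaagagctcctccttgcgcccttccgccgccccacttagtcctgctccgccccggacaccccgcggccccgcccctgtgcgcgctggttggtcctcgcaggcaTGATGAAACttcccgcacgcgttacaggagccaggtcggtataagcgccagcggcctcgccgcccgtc
The DDIT3 window held none of the 3 motifs searched. The remaining motif, the endoplasmic reticulum stress element (ERSE), was found in 0 of the 8 promoters of the genes that rose. It was found in 3 of 24 of the whole list (12.5%) and in 16 of 11987 promoters of tested genes (0.133%). A match of letters is a description of the window and not a binding site.

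The list of hypoxia response genes, one of the longer ones, held the most increases by number of the lists described here. By share it did not lead, with 33.3% of its tested genes higher, the same as the stress response list. The shares were 42.9% for the CDK inhibitors and 38.5% for the histone genes. Of 36 tested genes of the hypoxia response and glycolysis, 12 were higher and 0 lower (15 of 35 without replicate 4), with a median log2 fold change of 0.20 (0.26 without replicate 4). Of these, SLC2A3 passed the filter only through the LRCs. They were SLC2A3, PLOD2, CA9, ADM, NDRG1, EGLN3, P4HA1, SLC2A1, ENO2, KDM3A, ANKRD37 and ANGPTL4. SLC2A1, the glucose transporter GLUT1, had 1185, 870.0 and 602 CPM in LRC 1 to 3, 403 in the library labelled LRC 4 and 608, 540.2, 358 and 423 in non-LRC 1 to 4. SLC2A1 was higher in LRCs by 0.58 ± 0.11 on the log2 scale (adjusted p = 0.00358), and by 0.80 without replicate 4 (adjusted p = 2.32e-10). CA9, the membrane carbonic anhydrase that is a standard marker of HIF activity, had 101, 73.4 and 70.2 CPM in LRC 1 to 3, 38.1 in the library labelled LRC 4 and 55.02, 44.8, 39.8 and 36.05 in non-LRC 1 to 4. CA9 was higher in LRCs by 0.63 ± 0.11 on the log2 scale (adjusted p = 0.00115). NDRG1, a stress and hypoxia gene, had 1501, 1274 and 999.6 CPM in LRC 1 to 3, 494 in the library labelled LRC 4 and 832, 712, 534 and 516 in non-LRC 1 to 4. NDRG1 was higher in LRCs by 0.64 ± 0.12 on the log2 scale (adjusted p = 0.00202). For NDRG1 and SLC2A1 levels in both populations were highest in pair 1, every LRC of pairs 1 to 3 lay above its own non-LRC, and in pair 4 the LRC was the lower.

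ADM, which encodes the vasodilator adrenomedullin, had 38.5 to 60.5 CPM in LRC 1 to 3, 10.4 in the library labelled LRC 4 and 13.1 to 23.6 in the non-LRCs. ADM was higher in LRCs by 0.94 ± 0.17 on the log2 scale (adjusted p = 0.00173). The collagen-modifying hydroxylases PLOD2 and P4HA1 differed by 0.62 ± 0.10 and 0.56 ± 0.11 on the log2 scale (adjusted p = 0.000512 and 0.00302). EGLN3, an oxygen-sensing prolyl hydroxylase that is itself a HIF target, differed by 0.58 ± 0.11 (adjusted p = 0.00241), and KDM3A, a histone demethylase, by 0.42 ± 0.09 (adjusted p = 0.00623). VEGFA, the angiogenic factor, had 252 to 299 CPM in LRC 1 to 3, 178 in the library labelled LRC 4 and 183 to 242 in the non-LRCs and was not called with all pairs (0.29 ± 0.09, adjusted p = 0.066; 0.41, adjusted p = 0.00491 without replicate 4). The glycolytic isoforms ENO2 (0.56 ± 0.12, adjusted p = 0.00544) and ALDOC (0.29 ± 0.09, adjusted p = 0.0823) lay on opposite sides of the threshold.

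The core of the hypoxia response element, ACGTG, was searched in the same windows on both strands. It was found in 6 of the 12 promoters of the genes that rose (50%), in 19 of the 35 of the list with a window (54.3%) and in 4068 of 19874 promoters (20.5%). Among promoters of tested genes the share was 23.4%. The promoters of PLOD2, at chr3:145878972-145879221 (minus strand), CA9, at chr9:35673675-35673924 (plus strand), and ANKRD37, at chr4:186317745-186317994 (plus strand), are shown with the core in capitals, since they carry it near the start of genes that were higher in pairs 1 to 3.
PLOD2: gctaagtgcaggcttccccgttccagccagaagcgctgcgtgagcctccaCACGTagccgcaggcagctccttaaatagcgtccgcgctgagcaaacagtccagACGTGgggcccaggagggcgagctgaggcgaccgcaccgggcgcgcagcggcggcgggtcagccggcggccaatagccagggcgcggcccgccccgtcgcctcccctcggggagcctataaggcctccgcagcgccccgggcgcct
CA9: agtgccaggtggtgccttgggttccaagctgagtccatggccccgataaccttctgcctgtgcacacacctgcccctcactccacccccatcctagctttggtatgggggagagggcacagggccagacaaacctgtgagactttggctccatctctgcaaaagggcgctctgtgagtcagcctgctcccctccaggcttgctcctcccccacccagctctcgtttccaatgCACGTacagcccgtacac
ANKRD37: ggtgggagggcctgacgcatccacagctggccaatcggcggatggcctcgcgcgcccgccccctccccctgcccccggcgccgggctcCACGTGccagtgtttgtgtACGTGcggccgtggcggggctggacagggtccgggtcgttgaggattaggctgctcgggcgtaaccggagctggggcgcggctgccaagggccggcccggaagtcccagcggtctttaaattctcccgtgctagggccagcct
Windows without the core, such as those of SLC2A1 and EGLN3, say only that these letters are not in the 250 bases searched.

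Of 7 CDK inhibitor genes, 3 were higher (4 without replicate 4) and 0 lower, with a median log2 fold change of 0.48 (0.62 without replicate 4). CDKN2B (p15INK4B) had 11.9, 10.7 and 11.9 CPM in LRC 1 to 3, 4.34 in the library labelled LRC 4 and 4.57, 4.42, 4.72 and 5.34 in non-LRC 1 to 4. CDKN2B was higher in LRCs by 0.94 ± 0.20 on the log2 scale (adjusted p = 0.00657), and by 1.33 without replicate 4 (adjusted p = 9.11e-12). CDKN1A (p21) had 67.96, 55.5 and 59.1 CPM in LRC 1 to 3, 32.6 in the library labelled LRC 4 and 39.95, 43.1, 35.6 and 31.97 in non-LRC 1 to 4. CDKN1A was higher in LRCs by 0.48 ± 0.11 on the log2 scale (adjusted p = 0.0111). CDKN2D (p19INK4D) had 5.90, 6.72 and 5.45 CPM in LRC 1 to 3, 3.34 in the library labelled LRC 4 and 3.33, 3.83, 2.90 and 2.64 in non-LRC 1 to 4. CDKN2D was higher in LRCs by 0.73 ± 0.18 on the log2 scale (adjusted p = 0.0222). In all 3 genes LRC 1 to 3 lay above every non-LRC. CDKN1C (p57KIP2) had 9.44, 7.36 and 8.92 CPM in LRC 1 to 3, 5.14 in the library labelled LRC 4 and 4.63, 4.72, 5.10 and 6.34 in non-LRC 1 to 4, and passed the threshold only without replicate 4 (0.54 ± 0.18, adjusted p = 0.0948; 0.83, adjusted p = 0.000236 without replicate 4).

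Of 42 S-phase genes, 0 were higher and 1 lower with all pairs (edgeR; 5 at an unadjusted p under 0.05, and 0 called by DESeq2), and 0 and 2 without replicate 4, with a median log2 fold change of -0.02. The lower member was CDCA7 (log2 fold change -0.32 ± 0.09, adjusted p = 0.045). Of 54 G2/M genes, 1 was higher and 0 lower (2 higher and 3 lower without replicate 4; median 0.03). Of all tested genes, 3.06% were higher and 0.600% lower. The higher gene was CKS2, a small subunit of cyclin-dependent kinases (log2 fold change 0.37 ± 0.10, adjusted p = 0.03). MKI67, the proliferation marker Ki-67, had 37.9, 129 and 134 CPM in LRC 1 to 3, 159 in the library labelled LRC 4 and 138, 130.5, 136 and 158 in non-LRC 1 to 4. Only LRC 1 stood apart for MKI67 (-0.44 ± 0.18, adjusted p = 0.175; -0.60, adjusted p = 1.11e-05 without replicate 4). Its log2 ratios were -1.86, -0.02 and -0.03 in pairs 1 to 3. Even so, its standard error without replicate 4, 0.115, was close to that of MYC, 0.110. With the block also left out, its adjusted p was 0.427 (edgeR). The very small p-values without replicate 4 therefore do not measure each gene's own spread alone. Without replicate 4 the lower G2/M genes were MKI67, CENPF and CENPE. CENPF and CENPE, of the mitotic kinetochore, were also low in LRC 1, at 64.8 and 13.96 CPM against 139.6 to 153 and 29.8 to 33.7 in the non-LRCs, whereas TOP2A, which is needed to separate chromosomes, had 432 to 562 CPM in LRC 1 to 3, 434 in the library labelled LRC 4 and 382 to 412 in the non-LRCs (0.24 ± 0.09, adjusted p = 0.116). Among 21 genes of cell cycle entry, 0 were called with all pairs (edgeR; 3 at an unadjusted p under 0.05, and 0 by DESeq2), and without replicate 4 E2F4 and MKI67 were lower (E2F4 -0.33, adjusted p = 0.0367 without replicate 4).

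Of 37 ribosome biogenesis genes, 0 were higher and 2 lower (5 without replicate 4), with a median log2 fold change of -0.13 (-0.19 without replicate 4) and 31 of the 37 below 0. Over all tested genes, 7116 of 13674 were below 0. MYBBP1A, a nucleolar transcription cofactor, had 64.5, 94.1 and 104 CPM in LRC 1 to 3, 130.4 in the library labelled LRC 4 and 127, 128, 118 and 139.9 in non-LRC 1 to 4. MYBBP1A was lower in LRCs, with a log2 fold change of -0.42 ± 0.11 (adjusted p = 0.0239). RRS1, needed for assembly of the large ribosomal subunit, had 15.7, 15.9 and 18.7 CPM in LRC 1 to 3, 21.6 in the library labelled LRC 4 and 22.4, 24.2, 22.8 and 24.2 in non-LRC 1 to 4. RRS1 was lower in LRCs, with a log2 fold change of -0.39 ± 0.11 (adjusted p = 0.0444). For both genes, LRC 1 to 3 lay below every non-LRC. MYC had 259.7, 255 and 276 CPM in LRC 1 to 3, 315 in the library labelled LRC 4 and 331, 361, 317 and 332 in non-LRC 1 to 4. All LRC values lay below all non-LRC values, but MYC passed the threshold only without replicate 4 (-0.28 ± 0.09, adjusted p = 0.0691; -0.35, adjusted p = 0.0205 without replicate 4). MXD1, a partner of MAX that opposes MYC, was higher, with 73.8 to 83.6 CPM in LRC 1 to 3, 46.5 in the library labelled LRC 4 and 46.8 to 50.5 in the non-LRCs (log2 fold change 0.50 ± 0.10, adjusted p = 0.00623), the 1 call among 13 genes of the MYC network (median -0.09). Without replicate 4 that list had 2 higher and 3 lower genes, the lower ones being MYC, MLXIPL and MLXIP. The 13 mitochondrially encoded genes had 0 calls by edgeR, also without replicate 4 (0 at an unadjusted p under 0.05, and 0 by DESeq2) and a median of -0.14, with medians of -0.20, -0.17 and -0.24 in pairs 1 to 3 and 0.16 in pair 4.

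Of 33 tested lysosome and autophagy genes, 6 were higher and 0 lower (10 of 32 without replicate 4), with a median log2 fold change of 0.14 (0.20 without replicate 4) and 28 of the 33 above 0. Over all tested genes, 6558 of 13674 were above 0. SQSTM1, the autophagy receptor p62, had 488, 394 and 488 CPM in LRC 1 to 3, 261 in the library labelled LRC 4 and 275, 278, 267 and 274 in non-LRC 1 to 4. SQSTM1 was higher in LRCs by 0.54 ± 0.11 on the log2 scale (adjusted p = 0.00549). MAP1LC3B, which marks autophagosomes once lipidated, had 139.9, 113 and 118 CPM in LRC 1 to 3, 71.6 in the library labelled LRC 4 and 69.1, 66.8, 75.1 and 73.6 in non-LRC 1 to 4. MAP1LC3B was higher in LRCs by 0.60 ± 0.11 on the log2 scale (adjusted p = 0.00302). GABARAPL1, of the same family, had 33.0 to 37.05 CPM in LRC 1 to 3, 19.2 in the library labelled LRC 4 and 16.7 to 20.7 in the non-LRCs. GABARAPL1 was higher in LRCs by 0.69 ± 0.13 on the log2 scale (adjusted p = 0.00303). In these 3 genes LRC 1 to 3 lay above every non-LRC, and the library labelled LRC 4 at or below the highest non-LRC. The others were the sialidase NEU1, the proton pump subunit ATP6V0D1 and MITF. MITF, a relative of the lysosomal regulator TFEB, had 2.49, 2.20 and 2.54 CPM in LRC 1 to 3, 1.05 in the library labelled LRC 4 and 0.252 to 0.879 in the non-LRCs. MITF was higher in LRCs by 1.88 ± 0.37 on the log2 scale (adjusted p = 0.00351). Its raw counts were 38, 34, 41 and 21 in the LRC libraries and 6, 9, 4 and 14 in the non-LRCs. It therefore passed the filter through the LRCs, and it was not tested without replicate 4.

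Of 12 sterol efflux genes and targets of the oxysterol receptor LXR, 3 were higher and 0 lower (6 without replicate 4), with a median of 0.22. ABCA1, which exports cholesterol, had 6.88 to 8.67 CPM in LRC 1 to 3, 5.09 in the library labelled LRC 4 and 2.64 to 4.72 in the non-LRCs. ABCA1 was higher in LRCs by 0.99 ± 0.17 on the log2 scale (adjusted p = 0.000858). ABCG1, which also exports sterols, had 5.17 to 7.25 CPM in LRC 1 to 3, 2.59 in the library labelled LRC 4 and 1.77 to 3.28 in the non-LRCs. ABCG1 was higher in LRCs by 1.11 ± 0.21 on the log2 scale (adjusted p = 0.00344). For both transporters LRC 1 to 3 lay above every non-LRC. APOE, a lipoprotein component, had 4.91 to 5.18 CPM in LRC 1 to 3, 1.45 in the library labelled LRC 4 and 1.11 to 2.45 in the non-LRCs. APOE was higher in LRCs by 1.05 ± 0.29 on the log2 scale (adjusted p = 0.0412). Of 25 genes of cholesterol synthesis and uptake 0 were called in either direction by edgeR (5 at an unadjusted p under 0.05, and 0 by DESeq2), with a median of 0.01. Without replicate 4, 3 were higher and 0 lower. ABCB1, the drug efflux pump P-glycoprotein, had 79.03, 86.6 and 83.2 CPM in LRC 1 to 3, 40.8 in the library labelled LRC 4 and 40.2, 32.5, 47.6 and 42.1 in non-LRC 1 to 4 and was the 1 of 10 ABC drug transporters that was called. ABCB1 was higher in LRCs by 0.79 ± 0.14 on the log2 scale (adjusted p = 0.00127), and by 1.06 without replicate 4 (adjusted p = 2.29e-17). Without replicate 4 that list had 3 higher and 1 lower. In ABCB1, LRC 1 to 3 lay well above the other 5 libraries.

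Among 31 tested Wnt targets and crypt stem cell genes, 5 were higher and 1 lower, the same counts as without replicate 4, with a median log2 fold change of 0.02. The lower one was CDCA7, which is also in the S-phase list. OLFM4, a marker of crypt base columnar cells, had 211, 134 and 96.8 CPM in LRC 1 to 3, 47.1 in the library labelled LRC 4 and 48.6, 40.7, 49.7 and 47.2 in non-LRC 1 to 4. OLFM4 was higher in LRCs by 1.21 ± 0.18 on the log2 scale (adjusted p = 0.000302), and by 1.60 without replicate 4 (adjusted p = 3.68e-40). SMOC2, a matricellular protein of crypt stem cells, had 15.9, 12.1 and 8.12 CPM in LRC 1 to 3, 1.80 in the library labelled LRC 4 and 2.78, 1.33, 1.07 and 2.26 in non-LRC 1 to 4. SMOC2 was higher in LRCs by 2.17 ± 0.31 on the log2 scale (adjusted p = 0.000119). The LRC values of both genes differed widely among replicates 1 to 3 and lay above every non-LRC. LGR5 itself, the Wnt-amplifying receptor of those cells, had 32.1, 39.01 and 31.8 CPM in LRC 1 to 3, 36.6 in the library labelled LRC 4 and 33.8, 33.9, 34.3 and 31.8 in non-LRC 1 to 4, with no separation (0.06 ± 0.10, adjusted p = 0.814). TNFRSF19 (1.07 ± 0.18, adjusted p = 0.000736), the transcription factor PROX1 (0.83 ± 0.17, adjusted p = 0.00405) and the Wnt inhibitor APCDD1 (1.39 ± 0.34, adjusted p = 0.0189) were also higher, and EPHB2 and PTK7, surface markers of crypt progenitors, were not called (-0.23 ± 0.09, adjusted p = 0.132, and 0.09 ± 0.08, adjusted p = 0.598). DKK1, a secreted Wnt inhibitor, did not pass the filter, with 35, 62 and 68 counts in LRC 1 to 3, 0 in the library labelled LRC 4 and 1, 0, 1 and 1 in non-LRC 1 to 4 (raw counts).

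Of 21 tested enterocyte genes, 5 were higher and 1 lower (9 and 1 without replicate 4; median 0.06). CEACAM6, an adhesion molecule, had 29.9, 30.2 and 29.6 CPM in LRC 1 to 3, 11.52 in the library labelled LRC 4 and 10.6, 13.1, 10.1 and 11.6 in non-LRC 1 to 4. CEACAM6 was higher in LRCs by 1.08 ± 0.16 on the log2 scale (adjusted p = 0.000296). CA2, carbonic anhydrase 2, had 19.8 to 26.3 CPM in LRC 1 to 3, 9.88 in the library labelled LRC 4 and 9.29 to 14.4 in the non-LRCs. CA2 was higher in LRCs by 0.72 ± 0.15 on the log2 scale (adjusted p = 0.00657). EMP1 (0.56 ± 0.11, adjusted p = 0.0032), the retinol dehydrogenase DHRS9 (0.98 ± 0.27, adjusted p = 0.0444) and CEACAM7 were the other increases. MYO1A, the brush border myosin, had 134 to 148 CPM in LRC 1 to 3, 219.5 in the library labelled LRC 4 and 197 to 212 in the non-LRCs. MYO1A was lower in LRCs, with a log2 fold change of -0.39 ± 0.10 (adjusted p = 0.0222). Of 15 goblet and secretory genes, 3 were higher and 0 lower (3 higher and 2 lower, MUC2 and SPINK4, without replicate 4), and the 3 were the 3 trefoil factors, which protect the mucosa. TFF3 had 496, 314 and 369 CPM in LRC 1 to 3, 181 in the library labelled LRC 4 and 241, 177, 195 and 208 in non-LRC 1 to 4. TFF3 was higher in LRCs by 0.65 ± 0.13 on the log2 scale (adjusted p = 0.00378). TFF1 had 27.5 to 46.4 CPM in LRC 1 to 3, 14.6 in the library labelled LRC 4 and 14.01 to 20.8 in the non-LRCs. TFF1 was higher in LRCs by 0.81 ± 0.13 on the log2 scale (adjusted p = 0.000828). TFF2 had 3.29 to 6.29 CPM in LRC 1 to 3, 2.34 in the library labelled LRC 4 and 1.39 to 1.88 in the non-LRCs. TFF2 was higher in LRCs by 1.22 ± 0.24 on the log2 scale (adjusted p = 0.00405). All 3 factors were higher in each of LRC 1 to 3 than in any non-LRC. MUC2, the goblet cell mucin, did not follow them, at 4.65, 9.88 and 7.25 CPM in LRC 1 to 3, 9.83 in the library labelled LRC 4 and 13.96, 14.2, 8.31 and 10.2 in non-LRC 1 to 4 (-0.56 ± 0.17, adjusted p = 0.0672; -0.75, adjusted p = 0.000183 without replicate 4). KRT20, AGR2 and CDX2 were not called (0.06 ± 0.08, adjusted p = 0.738 for KRT20, -0.09 ± 0.09, adjusted p = 0.639 for AGR2, and -0.18 ± 0.08, adjusted p = 0.237 for CDX2). Among 20 lineage transcription factors, KLF4 was higher (log2 fold change 0.50 ± 0.10, adjusted p = 0.00486) and NR1I2, the xenobiotic receptor PXR, lower (log2 fold change -0.34 ± 0.10, adjusted p = 0.047), with 1 higher and 2 lower without replicate 4. With all pairs the increase was 5% of the lineage list, near the 3.06% of all tested genes.

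Of 24 immediate early and heat shock genes, 4 were higher and 0 lower (6 without replicate 4; median 0.12). FOSB, a component of AP-1, had 15.01, 15.9 and 16.9 CPM in LRC 1 to 3, 1.10 in the library labelled LRC 4 and 3.58, 4.13, 1.20 and 1.32 in non-LRC 1 to 4. FOSB was higher in LRCs by 2.14 ± 0.28 on the log2 scale (adjusted p = 4.49e-05). EGR1 had 47.2, 60.2 and 59.98 CPM in LRC 1 to 3, 17.3 in the library labelled LRC 4 and 38.6, 38.6, 18.8 and 15.8 in non-LRC 1 to 4, so that non-LRC 1 and 2 lay above non-LRC 3 and 4. EGR1 was higher in LRCs by 0.69 ± 0.15 on the log2 scale (adjusted p = 0.00918). ATF3, a stress-induced repressor, had 33.1 to 45.97 CPM in LRC 1 to 3, 15.96 in the library labelled LRC 4 and 15.1 to 18.8 in the non-LRCs (log2 fold change 0.93 ± 0.16, adjusted p = 0.000911), and FOSL1 was also higher (0.50 ± 0.14, adjusted p = 0.0433). Of 24 genes of the EGF receptor family, its ligands and ERK feedback, 5 were higher and 0 lower (6 without replicate 4; median 0.05). DUSP5, a nuclear phosphatase of ERK, had 11.47, 10.1 and 11.2 CPM in LRC 1 to 3, 1.35 in the library labelled LRC 4 and 2.29, 1.48, 2.02 and 1.51 in non-LRC 1 to 4. DUSP5 was higher in LRCs by 2.06 ± 0.27 on the log2 scale (adjusted p = 4.49e-05), and by 2.50 without replicate 4 (adjusted p = 5.2e-31). For DUSP5, LRC 1 to 3 lay above 10 CPM, and the other 5 libraries at or below 2.29. The rest were the ligand TGFA (0.43 ± 0.09, adjusted p = 0.0065), the receptor inhibitor ERRFI1 (0.41 ± 0.09, adjusted p = 0.00752), EPHA2 (0.41 ± 0.11, adjusted p = 0.0327) and DUSP4 (0.39 ± 0.11, adjusted p = 0.0377).

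Of 21 NF-kB targets and chemokines, 4 were higher and 0 lower (7 and 1 without replicate 4; median 0.16). LCN2, a siderophore-binding protein of mucosal defense, had 8.26, 6.65 and 8.98 CPM in LRC 1 to 3, 0.898 in the library labelled LRC 4 and 2.10, 1.33, 1.39 and 0.942 in non-LRC 1 to 4. LCN2 was higher in LRCs by 1.98 ± 0.27 on the log2 scale (adjusted p = 7.6e-05). TNFAIP3, the NF-kB inhibitor A20, had 13.9 to 17.5 CPM in LRC 1 to 3, 8.63 in the library labelled LRC 4 and 6.12 to 7.87 in the non-LRCs. TNFAIP3 was higher in LRCs by 0.92 ± 0.14 on the log2 scale (adjusted p = 0.000402). IL1A and BIRC3 were the others (1.04 ± 0.23, adjusted p = 0.0107, and 0.41 ± 0.11, adjusted p = 0.0386). Of 21 genes of FOXO and insulin-PI3K signaling, 3 were higher and 0 lower (4 without replicate 4; median 0.13). They were ARRDC3, IRS2 and BCL6 (0.51 ± 0.15, adjusted p = 0.0499 for BCL6). IRS2, an insulin receptor substrate, had 76.02 to 109 CPM in LRC 1 to 3, 48.1 in the library labelled LRC 4 and 46.5 to 64.2 in the non-LRCs. IRS2 was higher in LRCs by 0.52 ± 0.13 on the log2 scale (adjusted p = 0.0174). Of 25 p53 targets, 2 were higher, CDKN1A and the kinase PLK2 (1.05 ± 0.19, adjusted p = 0.00185), and 0 lower (3 and 1 without replicate 4; median 0.00). GBP2 (0.80 ± 0.14, adjusted p = 0.00127) and IRF1 (0.48 ± 0.12, adjusted p = 0.0276) were the 2 interferon-stimulated genes of 24 that were higher (5 of 23, with 0 lower, without replicate 4; median 0.18). Of 19 NRF2 targets, HMOX1, heme oxygenase, was higher (0.70 ± 0.16, adjusted p = 0.0107), and AKR1C1 and AKR1B10 (-0.49 ± 0.11, adjusted p = 0.00875) were lower (median -0.12), with 3 higher and 4 lower without replicate 4. Of 15 genes of MHC class I presentation, HLA-B was higher (0.42 ± 0.10, adjusted p = 0.0188) and NLRC5 lower, with 2 and 1 without replicate 4. The increases were 8% of the p53 targets, 8.33% of the interferon-stimulated genes, 5.26% of the NRF2 targets and 6.67% of the MHC class I genes. Over all tested genes the share was 3.06%.

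Of 27 integrins, laminins and matrix genes, 4 were higher and 0 lower (7 of 26 without replicate 4; median 0.17). ITGA5, a subunit of the fibronectin receptor, had 28.4, 22.99 and 14.6 CPM in LRC 1 to 3, 5.69 in the library labelled LRC 4 and 10.9, 7.30, 5.29 and 5.34 in non-LRC 1 to 4. ITGA5 was higher in LRCs by 1.21 ± 0.17 on the log2 scale (adjusted p = 0.000114). FN1, fibronectin, had 13.4, 14.1 and 12.8 CPM in LRC 1 to 3, 5.34 in the library labelled LRC 4 and 5.002, 4.79, 4.79 and 5.78 in non-LRC 1 to 4. FN1 was higher in LRCs by 1.09 ± 0.19 on the log2 scale (adjusted p = 0.00154). LAMB3 and LAMA3, chains of the epithelial laminin-332, differed by 0.60 ± 0.12 and 0.40 ± 0.10 (adjusted p = 0.00326 and 0.0187). In each of these genes LRC 1 to 3 lay above every non-LRC. Of 16 CCN genes and YAP-TEAD targets, 3 were higher and 0 lower (6 without replicate 4; median 0.13). LATS2, a kinase that inhibits YAP, had 49.8 to 60.5 CPM in LRC 1 to 3, 29.7 in the library labelled LRC 4 and 27.4 to 30.9 in the non-LRCs. LATS2 was higher in LRCs by 0.72 ± 0.12 on the log2 scale (adjusted p = 0.000736). CCN1 had 2.88 to 3.29 CPM in LRC 1 to 3, 1.10 in the library labelled LRC 4 and 0.147 to 0.988 in the non-LRCs (log2 fold change 2.01 ± 0.35, adjusted p = 0.00122), and WWTR1 (TAZ) was also higher (0.78 ± 0.21, adjusted p = 0.0316). Of 35 actin cytoskeleton genes, RDX, MSN and ANXA1 were higher and 0 lower (5 and 0 without replicate 4; median -0.04), RDX and MSN being membrane-to-actin linkers (0.62 ± 0.12, adjusted p = 0.0038, and 1.63 ± 0.32, adjusted p = 0.00396). The increases were 8.57% of the actin list, against 3.06% of all tested genes. CLU, the secreted chaperone clusterin that is also induced in regenerating crypts, had 72.02, 60.2 and 65.3 CPM in LRC 1 to 3, 19.5 in the library labelled LRC 4 and 20.9, 18.8, 18.96 and 21.1 in non-LRC 1 to 4. CLU was higher in LRCs by 1.31 ± 0.19 on the log2 scale (adjusted p = 0.000119), and by 1.75 without replicate 4 (adjusted p = 2e-41). CD55, a complement inhibitor, had 71.4 to 83.6 CPM in LRC 1 to 3, 46.5 in the library labelled LRC 4 and 43.7 to 57.3 in the non-LRCs. CD55 was higher in LRCs by 0.50 ± 0.10 on the log2 scale (adjusted p = 0.00623). These were the 2 of 11 complement genes called, and without replicate 4 the list had 3 higher and 2 lower, C1RL and CFD. Of 21 genes of BMP and TGF-beta signaling, 3 were higher, among them PMEPA1 and BAMBI (0.97 ± 0.21, adjusted p = 0.00785 for PMEPA1), and ID3 was lower (-0.39 ± 0.09, adjusted p = 0.0175). Without replicate 4 the counts were 4 and 2.

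Of 13 histone genes with polyadenylated transcripts, 5 were higher and 0 lower (7 without replicate 4; median 0.28): H2BC5, H2BC12, H2AC6, H2BC21 and H1-2. H1-2 had 11.8 to 16.3 CPM in LRC 1 to 3, 5.04 in the library labelled LRC 4 and 5.80 to 7.75 in the non-LRCs (log2 fold change 0.73 ± 0.18, adjusted p = 0.021), and the near-identical copies of histone genes make these counts uncertain. KRT80 was higher among 10 keratins (0.64 ± 0.13, adjusted p = 0.00379), TIMP2 among 8 metalloproteinases and inhibitors (0.45 ± 0.12, adjusted p = 0.0297) and CLDN1 among 15 claudins and tight junction genes (0.46 ± 0.10, adjusted p = 0.00891), with 2, 1 and 1 higher and 0 lower in these lists without replicate 4. With all pairs these single calls were 10%, 12.5% and 6.67% of their lists, against 3.06% of all tested genes. MMP1, MMP10 and MMP3 did not pass the filter, with 122, 53 and 24 raw counts summed over the LRC libraries and 3, 0 and 0 over the non-LRC libraries. LFNG was lower among 20 Notch genes (-0.43 ± 0.10, adjusted p = 0.0184; 0 higher and 2 lower without replicate 4), and none of 11 genes of epithelial-mesenchymal state and 10 S100 genes was called by edgeR (1 in each list was at an unadjusted p under 0.05, 0 were called by DESeq2, and 1 in each was higher without replicate 4). CD68, the leukocyte list's only tested member, had 54.1 to 64.5 CPM in LRC 1 to 3, 41.6 in the library labelled LRC 4 and 39.1 to 48.3 in the non-LRCs. CD68 was higher in LRCs by 0.38 ± 0.10 on the log2 scale (adjusted p = 0.0249).

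**Figure D4:**
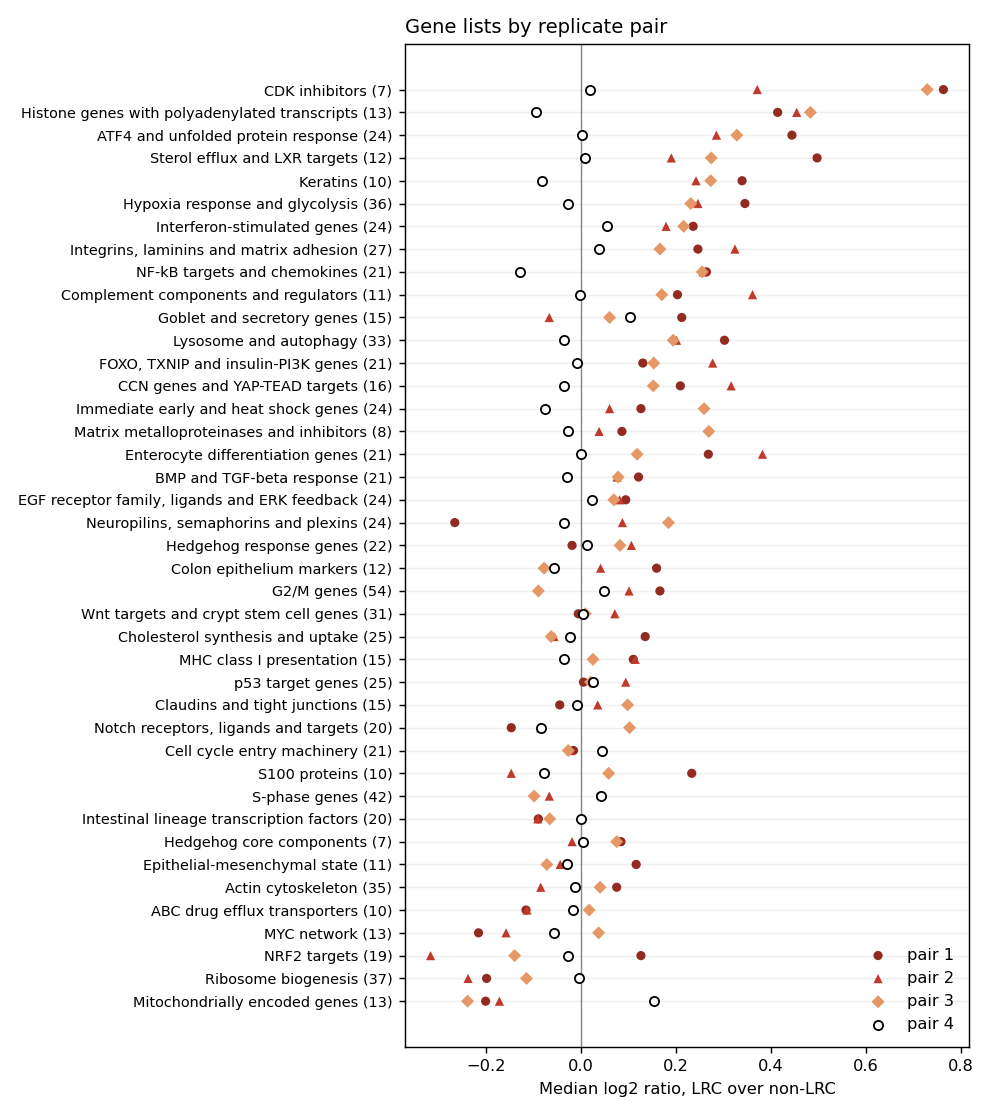
Median log2 ratio of LRC over non-LRC in each gene list, by replicate pair, with the number of tested genes of each list in parentheses; lists are ordered by the median over the fit of all pairs. In the upper part of the plot pairs 1 to 3 lie to the right of 0 in most lists, and pair 4, the open circle, lies nearer 0 than they do in most of them.

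The study asked about Hedgehog (Hh) signaling in dormant cells, in which ligands bind PTCH1, release SMO and lead to GLI-driven transcription. In SW948 the defining signal transducers were close to the detection limit. SMO had 2, 1, 2 and 4 raw counts in the 4 LRC libraries and 2, 2, 1 and 2 in the non-LRCs, GLI1 had 0, 2, 2 and 1 against 0, 2, 0 and 0, and GLI2 had 2 or fewer in each library, so that a difference was not detectable at this depth. Of 17 core components, 7 were tested and 0 called by edgeR (1 at an unadjusted p under 0.05, and 0 by DESeq2), with a median log2 fold change of -0.02 (0.05 without replicate 4). The ligand IHH had 141, 121 and 97.8 CPM in LRC 1 to 3, 96.3 in the library labelled LRC 4 and 139, 132, 92.7 and 109.9 in non-LRC 1 to 4 (-0.05 ± 0.08, adjusted p = 0.786). The receptor PTCH1 had 56.3, 75.4 and 61.4 CPM in LRC 1 to 3, 57.3 in the library labelled LRC 4 and 57.5, 63.1, 55.2 and 55.02 in non-LRC 1 to 4 (0.11 ± 0.09, adjusted p = 0.54). The negative regulator SUFU had 15.6, 15.2 and 15.9 CPM in LRC 1 to 3, 12.4 in the library labelled LRC 4 and 14.6, 14.7, 14.2 and 16.2 in non-LRC 1 to 4 (-0.02 ± 0.12, adjusted p = 0.947). For these 3 genes the populations overlapped. Of 36 Hh response genes, 22 were tested. Of these, 3 were higher and 0 lower (5 without replicate 4; median 0.04), and all 3 are also known from outside Hh signaling. NRP1, a co-receptor of semaphorins and VEGF, had 3.02, 3.49 and 4.46 CPM in LRC 1 to 3, 1.25 in the library labelled LRC 4 and 1.05, 1.11, 0.945 and 1.19 in non-LRC 1 to 4. NRP1 was higher in LRCs by 1.42 ± 0.29 on the log2 scale (adjusted p = 0.00469), and by 1.81 without replicate 4 (adjusted p = 3.36e-08). L1CAM, a neural adhesion molecule, had 1.42 to 2.73 CPM in LRC 1 to 3, 0.449 in the library labelled LRC 4 and 0.314 to 0.756 in the non-LRCs. L1CAM was higher in LRCs by 1.52 ± 0.33 on the log2 scale (adjusted p = 0.00726). TLE3, a Groucho-type corepressor, differed by 0.36 ± 0.10, adjusted p = 0.0437. The list median leaves out the members under the filter. Among those, NRCAM, HEY2, ACHE and HEY1 had 70, 61, 55 and 37 raw counts summed over the LRC libraries. Over the non-LRC libraries they had 24, 21, 13 and 7. Only UNC5C had more in the non-LRCs, with 1 count against 0. NRP1 was also the 1 gene called among 24 neuropilins, semaphorins and plexins (median 0.04), with 2 higher and 1 lower without replicate 4. With all pairs that was 4.17% of the list, near the 3.06% of all tested genes.

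How far the LRC difference in SW948 departed from that in the other lines was tested directly, as the SW948 difference minus the mean difference of HT55, RKO, SW48, DLD1 and HCT15 over the 48 sorted libraries. Of 10907 genes expressed in every line, 200 (1.83%) had a larger difference in SW948 and 152 (1.39%) a smaller one. Of the 200, 86 were also called higher in SW948 itself, and of the 152 only 9 were also called lower. Without the block the counts were 15 and 17. Leaving out replicate 1 gave 16 and 32, replicate 2 gave 37 and 52, replicate 3 gave 97 and 82, and replicate 4 gave 240 and 111. In these fits the replicate number was left out of every line and not of SW948 alone. By library size alone the counts were 272 and 102, so that 72.7% of the calls were larger in SW948, against 56.8% with TMM. Among genes averaging 1 log2 CPM or more in SW948, the 5 largest positive differences were in GADD45B, ETS1, FOSB, DUSP5 and MIR22HG. GADD45B differed by 2.05 ± 0.35, adjusted p = 0.00118, with log2 fold changes of 2.42 in SW948, 0.99 in SW48, 0.86 in HT55, 0.51 in DLD1, -0.01 in HCT15 and -0.03 in RKO. ETS1 differed by 1.91 ± 0.25, adjusted p = 7.13e-05, and its log2 fold change was 1.85 in HCT15, close to the 2.22 in SW948, and -0.61 to 0.37 in the other 4 lines. FOSB differed by 1.84 ± 0.34, adjusted p = 0.00206, DUSP5 by 1.55 ± 0.26, adjusted p = 0.000883 and MIR22HG by 1.36 ± 0.32, adjusted p = 0.0162. Without the block, the differences of GADD45B and ETS1 kept their calls (adjusted p = 0.028 and 0.0364), and those of FOSB, DUSP5 and MIR22HG did not (0.411, 0.272 and 0.204).

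Under the same limit, the 5 largest negative differences were in AQP3, GDF15, NECTIN4, PLCE1 and PRDM1, genes with a near-flat difference in SW948 and a large one in RKO. AQP3, a water and glycerol channel, differed by -1.39 ± 0.19, adjusted p = 9.34e-05, with log2 fold changes of 0.02 in SW948 and 4.12 in RKO. GDF15, a stress cytokine, differed by -1.25 ± 0.19, adjusted p = 0.000338, with 0.26 in SW948, 4.14 in RKO, 1.37 in SW48 and 0.17 in HT55. Without the block AQP3, NECTIN4 and PLCE1 kept their calls (adjusted p = 0.00306, 0.0364 and 0.028), and GDF15 and PRDM1 did not (0.265 and 0.0642). Without replicate 4, AQP3, NECTIN4 and PLCE1 were not tested. In all 5 genes the RKO value, between 3.18 and 4.19, was the farthest from that of SW948. Among the lists, cholesterol synthesis and uptake had 14 of 25 genes with a higher difference in SW948 than in the mean of the other lines and 0 a lower one. Without the block 0 of these 14 were called (edgeR, adjusted p = 0.251 to 0.599). The median log2 fold change of that list was 0.01 in SW948. It was -0.17 in HT55, the nearest line, and -0.56 in RKO, the farthest. SW48, DLD1 and HCT15 had medians of -0.27, -0.30 and -0.22. SQLE, squalene epoxidase, differed by 0.51 (adjusted p = 0.000238) and INSIG1 by 0.50 (adjusted p = 0.000842), with SW948 values of 0.08 and 0.24. Of 23 p53 targets, 0 were higher and 8 lower in this contrast (0 of the 8 called without the block, adjusted p = 0.0616 to 0.606), with medians of 0.00 in SW948 and 0.87 in RKO.

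HT55, the other line that the study placed in the CCS1 subtype, differed from SW948 in 20 of 12492 genes, 15 (0.120%) with a larger and 5 (0.0400%) with a smaller difference in SW948. All 15 were also called higher in SW948 itself. In HT55 alone, edgeR called 0 of 13391 genes higher or lower, with 2056 at an unadjusted p under 0.05. The small number of differences therefore does not show that the LRC change was alike in these lines. The largest among genes averaging 1 log2 CPM or more were ETS1 (2.30 ± 0.32, adjusted p = 0.0107), IL6R (1.75 ± 0.29, adjusted p = 0.0276), DUSP5 (1.74 ± 0.31, adjusted p = 0.0385), PROX1 (1.11 ± 0.19, adjusted p = 0.0276) and GULP1 (1.02 ± 0.17, adjusted p = 0.0276), with HT55 log2 fold changes of -0.07, -0.28, 0.38, -0.27 and -0.42. The 5 smaller ones were the serotonin transporter SLC6A4 (-1.29 ± 0.23, adjusted p = 0.0385), NOS2 (-1.23 ± 0.23, adjusted p = 0.0435), the amino acid transporter SLC6A20 (-1.22 ± 0.20, adjusted p = 0.0276), EVX1 (-0.99 ± 0.16, adjusted p = 0.0276) and GCNT1 (-0.71 ± 0.13, adjusted p = 0.0435). Without the block edgeR called 0 genes in this contrast (929 at an unadjusted p under 0.05), and DESeq2 with the block called 36 and 22. By library size alone 3 genes were called, all larger in SW948 (100% of the calls, against 75% with TMM). Leaving out replicate 1 left 1 call, leaving out replicate 3 left 0 (edgeR), and leaving out replicates 2 and 4 gave 66 and 53 larger differences and 130 and 5 smaller ones. Each replicate number was left out of both lines. Every between-line comparison used the same 8 SW948 libraries as the comparison within SW948.

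**Figure D5:**
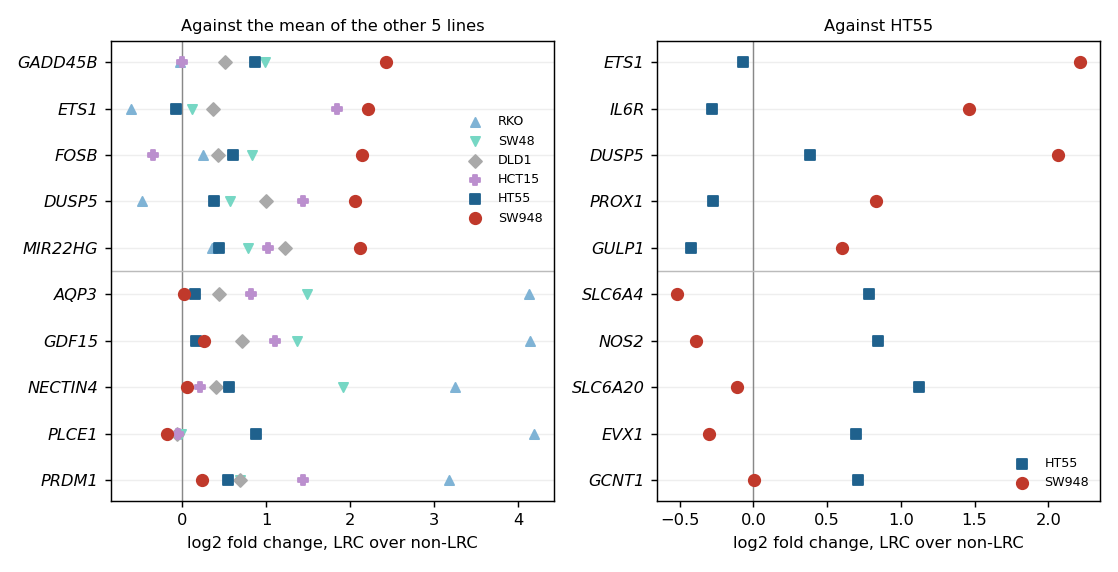
log2 fold change of LRCs over non-LRCs in each line for the 5 genes with the largest and the 5 with the smallest called differences, among those averaging 1 log2 CPM or more in SW948, between SW948 and the mean of the other 5 lines (left) and between SW948 and HT55 (right), each gene a row and each line a marker, red circles for SW948. In the upper rows SW948 lies to the right of the lines compared, between 0.60 and 2.42, and in the lower rows it lies between -0.52 and 0.26, left of HT55 on the right panel and left of RKO on the left panel.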

How the data were processed

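RNA-seq of sorted spheroid cells of 6 colorectal cancer lines was used, with the 8 SW948 libraries at its centre, the 40 libraries of the other 5 lines for comparison, and the 16 unsorted control libraries left out. The authors deposited raw read counts per gene for each library, made from single-end reads of 50 bases aligned to hg19, and their processing notes name TopHat, HTSeq and DESeq. The versions and the gene annotation are not given in the sources used here. The summary lines of the count files were left out of library sizes and tests, and reads with no feature were 5.47 to 8.50% of each SW948 library.

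The members and the gene lists were chosen with earlier results of these data known. Genes with at least 10 counts in 4 of the 8 libraries were fitted with edgeR 4.0.16 (R 4.3.3; quasi-likelihood test, TMM normalization, replicate number as a block), with Benjamini-Hochberg adjustment over all genes tested and a threshold of 0.05. Fits that left out a replicate kept the limit of 4 libraries. Without replicate 4, a gene reaching 10 counts in a single population could therefore not be tested. TNC had 247 raw counts summed over the LRC libraries and 13 over the non-LRC libraries, and RSAD2 had 71 and 1. Neither passed the filter with all pairs. Errors after ± are standard errors of the log2 fold change. Differences between lines were contrasts in the same kind of fit over the 48 or, for HT55, 16 libraries. DESeq2 1.42.0, other scalings and filters, fits without the block and fits without each replicate were alternatives. S-phase and G2/M genes came from Seurat 5.3.0. Symbols and positions came from GENCODE on GRCh37. The fits were run on simulated data, where 200 well-counted genes changed by 1 on the log2 scale were recovered in 100% of cases for SW948. False calls were 2% of calls there, 6.1% against the other 5 lines and 6.6% against HT55. The simulated spread was a set value, and no library was set apart as LRC 4 is here. The simulation therefore checks the code and does not give the power in these libraries.

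Leading genes were the 12 largest increases and decreases among called genes that averaged 1 log2 CPM or more and moved one way in all 4 pairs. Up to 4 members of each list with the smallest p, the markers the study names, and the 5 largest called differences each way between lines, under the same limit on level, were also named. Other called members, and members given beside them, were named after their values were seen. Deviations from the group means of same-numbered libraries correlated at 0.117, 0.036, -0.013 and 0.229, so the numbers did not by themselves show a pairing. The block was kept because LRCs and non-LRCs of 1 number are the pairs of this comparison, and values without it are given beside the main counts.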

Additional observations from a re-analysis of the deposited data

Results flagged for a closer look

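In each group of 4 libraries, 1 value lying far from the other 3 was tested with Dixon's ratio of the gap to the range. The library labelled LRC 4 was the lowest for ETS1 (0.883) and IGFBP3 (0.922), and the highest for GAL3ST2 (0.883), UGT1A1 (0.893) and the total of reads counted on genes (0.864). Non-LRC 2 was the lowest for TSPYL2 (0.902). Among the other named list members, the library labelled LRC 4 was the far low value for 14 and the far high value for 1, BAX, and another library stood apart for 7. These were 5 of 72 groups of leading and marker genes (6.94%), 22 of 306 groups of list members (7.19%) and 1 of 16 groups of library measures (6.25%). Chance flags about 1 group in 20.

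The difference between LRCs and non-LRCs departed from the mean of the other 5 lines in 200 genes that were larger and 152 that were smaller in SW948. On the log2 scale the named genes departed by 2.05 for GADD45B, 1.91 for ETS1, 1.84 for FOSB, 1.55 for DUSP5 and 1.36 for MIR22HG, and by -1.39 for AQP3, -1.25 for GDF15, -1.22 for NECTIN4, -1.18 for PLCE1 and -1.08 for PRDM1. Against HT55, 15 genes were larger and 5 smaller. The named genes departed by 2.30 for ETS1, 1.75 for IL6R, 1.74 for DUSP5, 1.11 for PROX1 and 1.02 for GULP1, and by -1.29 for SLC6A4, -1.23 for NOS2, -1.22 for SLC6A20, -0.99 for EVX1 and -0.71 for GCNT1.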

How the results depend on the processing

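No called gene changed sign under the alternatives run. Of 2436 values of the 189 named genes in SW948, called or not, 8 changed sign, all of them in genes not called. Among list medians, 47 of 559 changed sign. The counts of calls in SW948, 419 higher and 82 lower, moved most with the libraries and the block. Without the replicate block, which assumes no pairing, edgeR called 0 and 0. Leaving out 1 replicate each gave 0 to 900 higher and 0 to 477 lower, and leaving out replicate 4 without the block gave 705 and 235. DESeq2 gave 174 and 24, no filter on low counts 693 and 232, and all 48 libraries in 1 fit 806 and 420. Library size alone gave 18 lower. A fold of at least 2 left 95 and 2. An alternative chosen after seeing the data, without the library labelled LRC 4 alone and with no block, gave 1260 and 696. Between lines, a replicate was left out of every line compared. Against the other 5 lines (200 and 152), no block gave 15 and 17, leaving out 1 replicate 16 to 240 and 32 to 111, no block without replicate 4 68 and 11, and no filter 375 and 298. Against HT55 (15 and 5), no block gave 0 and 0, leaving out 1 replicate 0 to 66 and 0 to 130, no block without replicate 4 6 and 0, DESeq2 36 and 22, library size alone 3 and 0, no filter 235 and 182, and 10 counts in every sample 1 and 0. Fewer samples or genes entered the fits without replicates and with filters, and for the rest the cause was not tested. Of 189 named genes in SW948, 107 lost their call without the block, 106 without replicate 2, 105 without replicate 3 and 55 with DESeq2, and 33 gained one without replicate 4. Genes under the filter on low counts, such as SMO and GLI1, were too shallow to compare.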
